A study of Mus musculus with 13 samples.

Results

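The cells described here are the macrophages of mice with chronic experimental autoimmune encephalomyelitis (EAE), in which an immune attack on myelin inflames the spinal cord, as they were collected through the resident sorting gate and through the infiltrating sorting gate. They were taken as the cells that the deposited cell table annotates as macrophages in the chronic libraries, 992 of 22148 cells in the series. The resident gate gave 178 of them, as 68, 58 and 52 cells in libraries a, b and c, and the infiltrating gate gave 814, as 350, 265 and 199 cells in libraries a, b and c. All mice, controls included, were of the Cx3cr1YFPCreERT2:R26tdTomato genotype, in which a tamoxifen-inducible Cre recombinase driven from the Cx3cr1 locus switches on a red reporter. Microglia and many other mononuclear phagocytes, circulating monocytes among them, use that locus. The 3 chronic resident and 3 chronic infiltrating libraries were the ones compared. The same gates were also collected at the peak of disease (2 libraries each), and only the resident gate in healthy controls (3 libraries). The labels call libraries of a group biological replicates, and how many animals stood behind a library, their age, and the fluorescence limits of each gate are not given in the sources used here.

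Microglia are the macrophages of the nervous tissue itself. They are seeded before birth and renew locally, while in EAE blood monocytes enter the spinal cord and turn into macrophages there. Both kinds of cell share a large set of phagocyte genes, and activated microglia lose part of their typical markers, so annotation from expression and origin from fate mapping can differ for a cell. The comparison asks whether cells annotated alike as macrophages also had the same expression when they came from opposite gates.

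The macrophage sums held 804024, 614778 and 526305 unique molecular identifiers (UMIs, the counted transcript molecules) in the resident libraries a, b and c and 3800119, 2827332 and 1548500 in the infiltrating ones. Values are given in that order of libraries throughout. Median UMIs per macrophage were 10542, 10296 and 8539 against 10103, 10191 and 6552, and median mitochondrial content was 1.17%, 1.30% and 1.72% against 0.987%, 1.37% and 1.83%, so depth per cell and this sign of RNA quality overlapped between the gates. In the deposited cell table, libraries a and b of both gates share an SLX value and libraries c of both gates share another. These values are taken here as sequencing pools and are named D and B. The batch dates of the table divide the chronic libraries in the same way. Microglia made up 93.5%, 90.6% and 97.3% of the cells in the resident libraries, against 1.80%, 81.2% and 13.4% in the infiltrating libraries, so infiltrating library b stood apart from a and c of its gate. No cell was marked as a doublet in the deposited table, and 12 barcodes occurred in more than 1 of the 6 chronic libraries, 2 of them carried by chronic macrophages. No reporter transcript is among the features of the deposited matrix, so the fate mark itself could not be read from the counts.

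Macrophages were 3.24%, 2.57% and 1.18% of the cells in resident libraries and 57.2%, 11.2% and 36.0% in infiltrating libraries. The mean share was 2.33% against 34.8% (n = 3 each), and the groups did not overlap. The two-sided exact permutation p was 0.1, the smallest that 3 against 3 libraries can give. The gates set which cells were collected, so these shares describe the sorts and not the spinal cord.

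The annotation was checked against marker lists. Levels are given as CPM, the counts of a gene scaled to a common total of counts of that set of cells in each library. The 12 macrophage markers, among them Ms4a7, Lyz2, Lgals3 and Apoe, summed to between 44771 and 107747 CPM in resident libraries. In infiltrating libraries they summed to between 30965 and 128314 CPM. Microglia summed to 32585 to 45931 CPM in resident and 14062 to 45684 CPM in infiltrating libraries. Within each library macrophages had the higher sum, but over libraries the ranges overlapped, so this sum alone did not separate the classes. Border-associated macrophages, the resident cells of meninges and perivascular spaces, were annotated separately by the authors. Their 14 markers, which include Ms4a7 and Fcrls of other lists, summed to 1607, 1955 and 2516 CPM in the macrophages of resident libraries and 1224, 1462 and 2641 CPM in those of infiltrating libraries, with Lyve1 and Cd209f at 0 UMIs in all 6 libraries. The cells annotated as border-associated summed to 1032 to 8244 CPM in resident and 2030 to 7161 CPM in infiltrating libraries. Those sums rest on only 1, 1 and 5 cells in resident libraries and 2, 2 and 8 cells in infiltrating libraries. Neutrophil markers summed to 85.5 to 423 CPM in resident and 62.6 to 214 CPM in infiltrating libraries, with Ly6g at 0. Natural killer markers summed to 1.24 to 24.7 and 1.06 to 12.6 CPM, with Ncr1 and Prf1 at 0, and B-cell markers to 3.80 to 11.4 and 6.84 to 16.8 CPM, with Cd79a and Ms4a1 at 0. T-cell markers summed to 22.8 to 150.1 CPM in resident and 41.3 to 148 CPM in infiltrating libraries. Oligodendrocyte markers summed to 78.4 to 127 and 83.2 to 114 CPM, and astrocyte markers to 44.8 to 58.6 and 22.6 to 70.03 CPM. The levels of these lists overlapped between the gates, and their part in the results was not tested. The 16 surface and secreted microglial markers summed to 10771, 15114 and 17178 CPM in resident libraries, against 3538, 6809 and 8584 CPM in infiltrating libraries, without overlap. The 14 monocyte markers summed to 17885, 16146 and 31058 CPM against 17649, 23458 and 45056 CPM, with overlap.

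The deposited clustering placed macrophages of the gates in different clusters. Cluster 6, where most macrophages and monocytes of the whole series lay, held 58.8%, 36.2% and 46.2% of the macrophages in resident libraries, against 99.7%, 87.9% and 98.5% in infiltrating libraries. Clusters 3 and 4, of which microglia made up 97.7% and 97.2% over the series, held 38.2%, 63.8% and 51.9% of the resident macrophages, against 0.286%, 12.1% and 1.51% of the infiltrating ones. The means for clusters 3 and 4 together were 51.3% ± 12.8 and 4.62% ± 6.48 (SD, n = 3 each), with an exact permutation p of 0.1, the smallest possible. The same p was found for each of clusters 6, 4 and 3, and the adjusted p over these 3 clusters was 0.1. The groups did not overlap in any of these shares, but for cluster 3 they nearly met. Cluster 3 held 14.7%, 15.5% and 1.92% of the macrophages in resident libraries against 0%, 1.89% and 0% in infiltrating libraries. The 1.92% of resident library c stood for 1 cell and the 1.89% of infiltrating library b for 5 cells. Over a sum of cells, fewer cells of a kind and less RNA per cell cannot be told apart, and every level over all macrophages below mixes these clusters. The highest share of clusters 3 and 4 among infiltrating libraries was in library b, whose cells were mostly microglia. The cells counted in clusters 3 and 4 were 26, 37 and 27 in resident libraries and 1, 32 and 3 in infiltrating libraries.

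**Figure D1:**
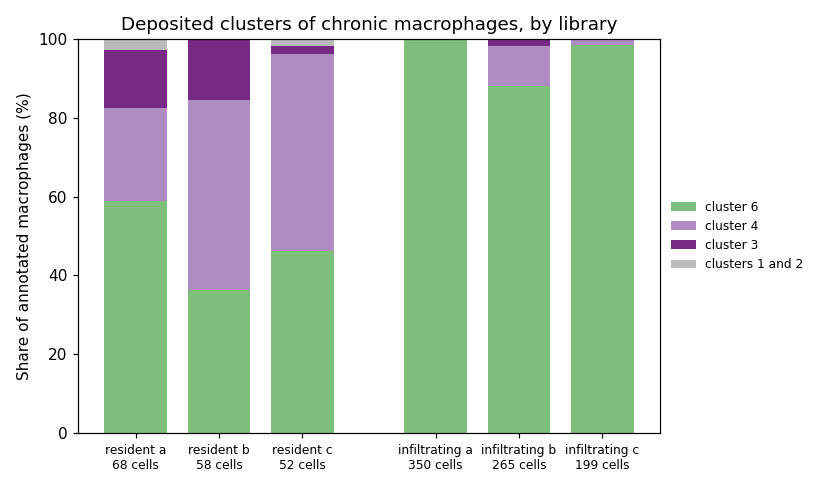
Share of annotated macrophages (%, vertical axis) in each deposited cluster, with 1 bar per chronic library and the number of macrophages under it. Cluster 6 holds 36.2% to 58.8% of macrophages in resident libraries and 87.9% to 99.7% in infiltrating libraries.

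Macrophages of cluster 4 carried genes of both cell kinds. Since the clusters were built from these genes, their levels are a description without a test. Lag3, an immune checkpoint receptor that microglia also express, stood at 132, 176 and 217 CPM in cluster 4 macrophages of resident libraries a, b and c and at 163 CPM in infiltrating library b. The other infiltrating libraries held only 1 and 3 such cells. In cluster 6 macrophages Lag3 was at 19.3, 15.0 and 40.2 CPM in resident libraries and 0.526, 15.2 and 3.96 CPM in infiltrating libraries. Microglia of cluster 4 had 459, 431 and 333 CPM in resident libraries. In each resident library Lag3 was thus lowest in cluster 6 macrophages, higher in cluster 4 macrophages and highest in cluster 4 microglia.

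Ms4a7, a membrane protein of monocyte-derived and border macrophages, ran the other way. It was at 1021, 1080 and 1447 CPM in cluster 4 macrophages of the resident libraries, against 104, 186 and 152 CPM in cluster 4 microglia of the same libraries. In cluster 6 macrophages it was at 719, 1049 and 1368 CPM in resident libraries, close to the level in cluster 4. Lyz2, lysozyme of myeloid cells, was at 6231, 6305 and 20818 CPM in cluster 4 macrophages, above 1735, 2945 and 6509 CPM in cluster 4 microglia and below 19568, 26193 and 42695 CPM in cluster 6 macrophages of the resident libraries. Gpnmb, a glycoprotein of lipid-laden phagocytes, reached 4453, 2931 and 1671 CPM in cluster 4 macrophages, against 722, 851 and 444 CPM in cluster 4 microglia.

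In the cluster 4 macrophages 7 of the 14 monocyte markers had 0 UMIs, Ccr2, Ly6c2 and S100a4 among them. The list, which includes Lyz2, summed to 6462, 6553 and 20934 CPM there in resident libraries, below 23367, 29171 and 43041 CPM in cluster 6 macrophages of the same libraries. A count of 0 in cluster 4 allows up to 19.8, 9.42 and 11.2 CPM in the resident libraries, and Ccr2 was at 15.8, 7.49 and 8.05 CPM in cluster 6, so a difference in Ccr2 was not detectable at this depth. Plbd1 also had 0 UMIs in cluster 4 macrophages of all 3 resident libraries and of infiltrating library b. In cluster 6 macrophages Plbd1, a lysosomal phospholipase of myeloid cells, was at 96.6, 89.9 and 109 CPM in resident libraries and 204, 155 and 131 CPM in infiltrating libraries. Cluster 4 macrophages had a median of 6280, 10582 and 8036 UMIs per cell in the resident libraries, against 2925, 2724 and 4696 UMIs in cluster 4 microglia. That depth moves with the levels above, its part in them was not tested, and the deposited table marks none of the cells as a doublet. Cluster 3 held 10, 9 and 1 macrophages of the resident libraries, with Ms4a7 at 0, 34.3 and 0 CPM and Gpnmb at 0, 68.5 and 0 CPM. A count of 0 there allows up to 55.0 CPM in library a and 796 CPM in library c.

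**Figure D2:**
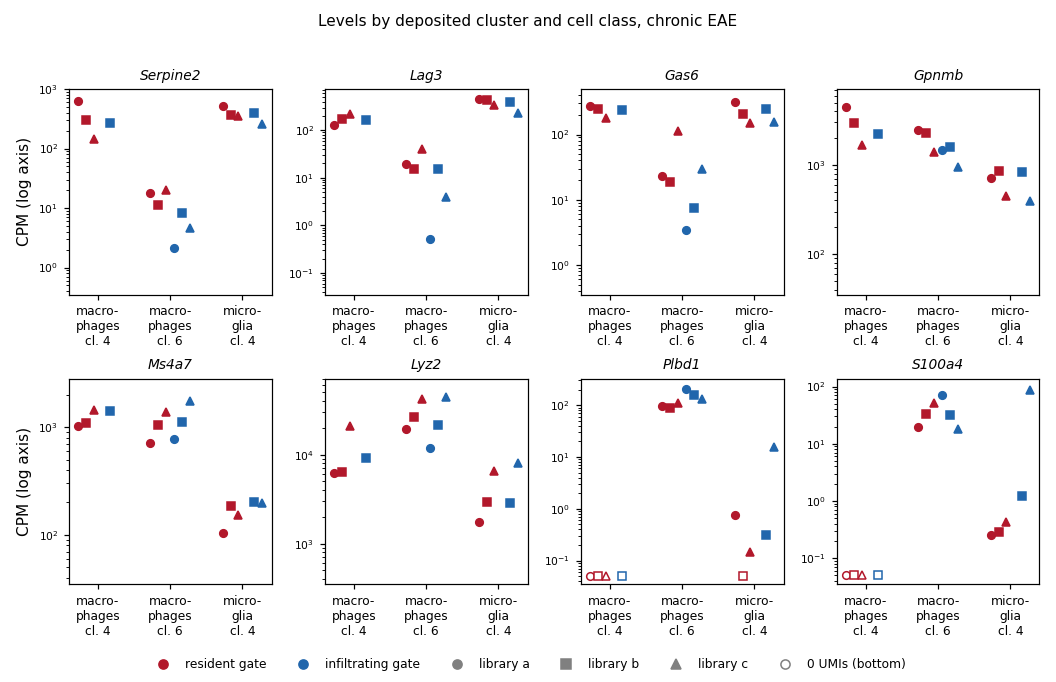
CPM on a log axis of 8 genes in macrophages of cluster 4, macrophages of cluster 6 and microglia of cluster 4, each point 1 chronic library with at least 10 such cells and each open symbol a library with 0 UMIs. Serpine2, Lag3 and Gas6 are higher in cluster 4 macrophages than in cluster 6 macrophages, Ms4a7 is at 1021 to 1447 CPM in cluster 4 macrophages and at 104 to 202 CPM in cluster 4 microglia, and Plbd1 and S100a4 are at 0 in cluster 4 macrophages.

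The gates were then compared over all macrophages of each library. Of 7177 genes tested with edgeR's quasi-likelihood test, 0 passed a Benjamini-Hochberg adjusted p of 0.05 in either direction, so percent called was 0.0%. At an unadjusted p under 0.05 there were 211 higher genes (2.94% of those tested) and 91 lower genes (1.27%) in the resident gate, 302 in all (4.21%). A threshold of 0.05 gives a share of 0.05 without any difference, and 4.21% is not above that. DESeq2 called 16 higher (0.223%) and 3 lower genes (0.0418%) on the same counts, 0.265% of those tested, and edgeR without a filter on low counts called 19 and 2. CPM values did not overlap between the gates for 365 higher genes (5.09%) and 307 lower genes (4.28%). Without any difference, 3 against 3 libraries would not overlap in a share of 0.1 over both directions. The biological coefficient of variation was 31.1% over 4 residual degrees of freedom.

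The higher genes described first are the 6 with the smallest p among those that met conditions of the naming rule, namely a fold change of at least 2-fold, no overlap between the gates and a mean abundance of 5 or more on the log2 CPM scale. None was called by edgeR, and less abundant genes outside these conditions, such as Adam33 and Sgce, had an adjusted p of 0.478. Ch25h, which makes 25-hydroxycholesterol from cholesterol, was at 59.5, 63.1 and 118 CPM in the resident libraries, against 1.28, 6.92 and 15.2 CPM in infiltrating libraries a, b and c. Every resident library lay above every infiltrating one, as the rule required, and the log2 fold change was 3.52 ± 0.68 (SE; adjusted p = 0.485 with edgeR, 3.05e-04 with DESeq2). Colec12, a scavenger receptor of the collectin family, was at 34.0, 91.1 and 118 CPM against 3.08, 18.6 and 7.94 CPM (3.02 ± 0.65, adjusted p = 0.678). Cox6a2, a subunit of cytochrome c oxidase better known from muscle, was at 60.7, 98.1 and 84.8 CPM against 7.19, 22.6 and 11.2 CPM (2.56 ± 0.42, adjusted p = 0.478). In these 3 genes infiltrating library a was the lowest and infiltrating b or c the highest of its gate.

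Chst1, a sulfotransferase of keratan sulfate, was at 42.5, 80.6 and 71.3 CPM in resident libraries against 8.22, 18.2 and 6.62 CPM in infiltrating libraries (2.51 ± 0.42, adjusted p = 0.478). C4b, complement component 4, was at 51.0, 66.6 and 54.0 CPM against 11.3, 20.4 and 6.62 CPM (2.12 ± 0.38, adjusted p = 0.478). Rhoc, a small GTPase of cell movement, was at 74.0, 142 and 98.3 CPM against 48.3, 48.5 and 43.0 CPM (1.16 ± 0.28, adjusted p = 0.756). The resident libraries were tight for C4b and spread wider for Rhoc.

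The promoter of Ch25h is shown because Ch25h had the largest fold change of the 12 genes chosen by rule. RefSeq (GRCm38.p6) places it at chr19:34475099-34475398 on the minus strand, 250 bases before to 50 bases after the gene's start, and the capitals mark the letters TGACGTCA, which is the cyclic-AMP response element (CRE) and reads the same on both strands.
Ch25h: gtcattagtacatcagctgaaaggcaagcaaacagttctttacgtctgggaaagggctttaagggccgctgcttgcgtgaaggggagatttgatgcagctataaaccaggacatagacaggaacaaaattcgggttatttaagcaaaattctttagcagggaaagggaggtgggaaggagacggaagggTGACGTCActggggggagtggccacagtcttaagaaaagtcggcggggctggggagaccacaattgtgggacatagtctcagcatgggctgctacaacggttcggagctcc
Of 32851 mouse promoters of that length in the same table, 1.79% held the CRE letters. This is a match of letters and says nothing about a factor bound there.

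Among the lower genes, the rule chose an immediate-early gene and an NF-kappa-B response gene. Fos, a subunit of the AP-1 transcription factor that is induced within minutes of stimulation, was at 14.6, 17.5 and 3.85 CPM in the resident libraries, against 52.4, 59.4 and 54.9 CPM in infiltrating libraries a, b and c. The gates did not overlap, as the rule required, and the infiltrating libraries were close to each other. The log2 fold change of Fos was -2.16 ± 0.38 (adjusted p = 0.478 with edgeR, 0.00245 with DESeq2). Nfkbia, the inhibitor of NF-kappa-B that is itself a target of it, was at 178, 138 and 162 CPM against 306, 346 and 340.1 CPM (-1.05 ± 0.23, adjusted p = 0.678 with edgeR, 0.0441 with DESeq2). Its libraries differed less within each gate than the gates did. Fos and Nfkbia are both members of the list of genes induced by tissue dissociation, described further on.

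Plbd1 was at 68.0, 42.1 and 52.0 CPM in resident libraries against 199, 144 and 131 CPM in infiltrating libraries (-1.54 ± 0.28, adjusted p = 0.478 with edgeR, 0.0110 with DESeq2). B3gnt8, a glycosyltransferase, Runx3, a transcription factor of leukocytes, and Ifi203, an interferon-inducible gene, differed by -1.14 ± 0.27, -1.25 ± 0.31 and -1.42 ± 0.41 with adjusted p of 0.756, 0.826 and 0.857. For each of them every resident library lay below every infiltrating one, as the rule required. The closest were 59.5 CPM of Ifi203 in resident library a and 69.6 CPM in infiltrating library b.

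**Figure D3:**
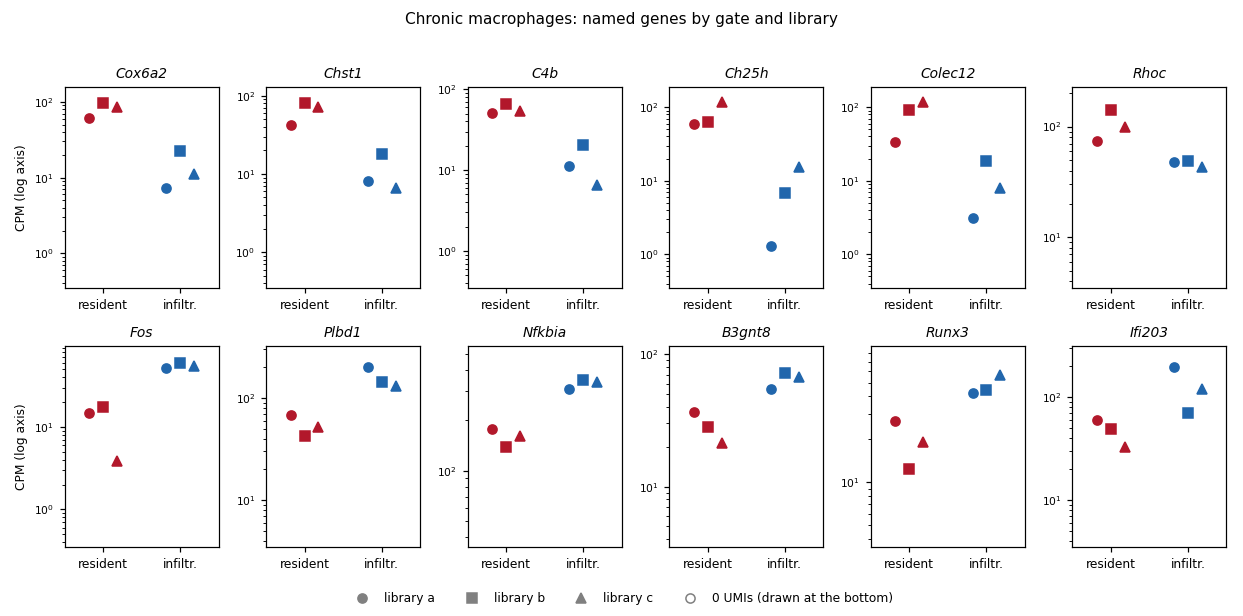
CPM on a log axis of the 12 genes chosen by rule, resident libraries on the left of each panel and infiltrating libraries on the right, each point 1 library. The upper 6 genes are higher and the lower 6 genes lower in all 3 resident libraries than in all 3 infiltrating libraries, as the rule required, and none passed the adjusted threshold in edgeR.

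The promoter of Nfkbia is shown because a known NF-kappa-B motif lies in it. RefSeq (GRCm38.p6) places the window at chr12:55492598-55492897 on the minus strand. The capitals mark the match to that motif, which lies on the opposite strand to the one printed.
Nfkbia: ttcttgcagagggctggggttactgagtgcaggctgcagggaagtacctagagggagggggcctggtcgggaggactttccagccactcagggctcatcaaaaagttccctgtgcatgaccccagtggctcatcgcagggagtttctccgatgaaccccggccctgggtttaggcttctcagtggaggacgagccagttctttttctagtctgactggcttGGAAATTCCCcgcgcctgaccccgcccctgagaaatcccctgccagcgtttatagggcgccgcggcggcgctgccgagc
Searched on both strands, 0.411% of the 32851 promoters held a match to it. The promoter windows of Fos, Junb, Tnf, Serpine2 and Chst1 held none of the 4 motifs searched, which were the NF-kappa-B motif, TGACGTCA, the AP-1 letters TGANTCA and the PU.1-type letters GAGGAAGT. The AP-1 letters stood in 7.81% and the PU.1-type letters in 3.20% of all promoters, and none of the motifs overlapped another in the windows shown.

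The 19 genes that DESeq2 called held 8 of the 12 genes above, namely Ch25h, Colec12, Cox6a2, Chst1, C4b, Fos, Plbd1 and Nfkbia. The other 11, all higher in the resident gate, included Serpine2, a serine protease inhibitor (log2 fold change 3.33 ± 0.75, adjusted p = 0.00662), Adam33, a metalloprotease (3.82 ± 0.72, adjusted p = 3.05e-04), Sgce, a sarcoglycan (4.89 ± 0.94, adjusted p = 3.05e-04), and Gas6, a ligand of receptors for dying cells (2.53 ± 0.66, adjusted p = 0.0441). Timp2, an inhibitor of metalloproteases, was higher by 1.83 ± 0.48 (adjusted p = 0.0441 with DESeq2). In edgeR these genes had adjusted p between 0.478 and 0.846.

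Gene lists were used to describe the direction of the gate differences, without a test of any list. All lists are described by counts and medians beside those of all 7177 genes, of which 3421 were higher and 3756 lower in sign, with a median log2 fold change of -0.02. Of the 16 microglial surface and secreted markers 14 were tested, 14 were higher in the resident gate, 0 were called by edgeR or DESeq2, 8 had an unadjusted p under 0.05 and 7 did not overlap, with a median of 1.24. Cst3, the protease inhibitor cystatin C, differed by 1.22 ± 0.38 (adjusted p = 0.933), Fcrls, an Fc receptor-like protein of microglia, by 1.84 ± 0.51 (adjusted p = 0.846) and P2ry12, the purine receptor of resting microglia, by 1.91 ± 0.52 (adjusted p = 0.846). T cells of the same libraries, taken as the background of free RNA, had a summed level of this list of 5006, 3491 and 2975 CPM in resident libraries against 1043, 2824 and 924.5 CPM in infiltrating libraries. That background therefore also differed by gate, and its part in the macrophage values was not tested.

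Of 10 microglial transcription factors 7 were tested, 0 were called by edgeR or DESeq2, 5 were higher and 2 lower in sign, 0 had an unadjusted p under 0.05, and the median was 0.07. Irf8, a factor of myeloid cells, was at 228, 228 and 225 CPM in resident libraries against 236, 197 and 214 CPM in infiltrating libraries (0.07 ± 0.22). The ranges overlapped. Sall1, which defines microglia, was too low in macrophages to be tested.

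Of 14 monocyte markers 11 were tested, 10 were lower in the resident gate and 1 was higher, 0 were called by edgeR or DESeq2 or had an unadjusted p under 0.05 with edgeR, and the median was -1.13. Ccr2 was at 10.9, 3.50 and 3.85 CPM in resident libraries against 16.4, 17.5 and 8.60 CPM in infiltrating libraries (-1.13 ± 0.51, adjusted p = 0.999). Ly6c2 was at 235, 121 and 0 CPM against 317, 282 and 24.5 CPM, and Chil3, a chitinase-like protein of monocytes, at 577, 336 and 0 CPM against 1376, 913 and 8.60 CPM. Both were far lower in libraries c of either gate than in a and b. Without cells that held a UMI of Tmem119, P2ry12, Sall1 or Siglech, the median was 0.63 for the microglial surface list and -0.47 for the monocyte list.

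Disease-associated microglia, a state of lipid and debris clearance, has a list of 23 genes, all tested. In the resident gate 20 were higher and 3 lower in sign, 9 had an unadjusted p under 0.05 and 9 did not overlap, with a median of 0.75. With edgeR 0 were called, and with DESeq2 Timp2 was. In cluster 6 macrophages 19 of the 23 were higher in sign, with a median of 0.27 against -0.02 for all genes. Microglia of the same libraries had 21 of the 23 higher, with a median of 0.27 against 0.04 for all genes. Cst7, a cystatin of that state, was at 397, 1449 and 453 CPM in resident libraries against 29.8, 274 and 28.5 CPM in infiltrating libraries (2.78 ± 0.94, adjusted p = 0.999), and Ctsd, cathepsin D, at 6996, 10312 and 10612 CPM against 4135, 4548 and 6071 CPM (0.92 ± 0.32, adjusted p = 0.999). Both were without overlap. Spp1, osteopontin, was at 10103, 14283 and 10596 CPM against 9385, 1705 and 4645 CPM, with infiltrating library a close to the resident ones (1.15 ± 0.55, adjusted p = 0.999).

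Of the 19 genes induced by dissociation 16 were tested, 14 were lower and 2 higher, and 3 of the lower ones had an unadjusted p under 0.05, with a median of -0.52. With edgeR 0 were called, and with DESeq2 Fos and Nfkbia were. Junb, another AP-1 subunit, was at 194, 221 and 169.6 CPM in resident libraries against 305, 275 and 365 CPM in infiltrating libraries (-0.69 ± 0.24, adjusted p = 0.999). Summed over the list, the level was 2878, 2590 and 2675 CPM against 3788, 2988 and 3740 CPM, which did not overlap. Tnf, an inflammatory cytokine that is no member of that list, was at 43.7, 52.6 and 23.1 CPM against 103, 107 and 52.9 CPM (-1.13 ± 0.37, adjusted p = 0.974), where resident b and infiltrating c nearly met.

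In the lists of immune and metabolic function that follow, edgeR and DESeq2 called 0 members. Of 22 tested interferon response genes 20 were lower in sign, with a median of -0.30, but no member had an unadjusted p under 0.05. Of 10 MHC class II genes 7 were lower (median -0.40) and of 16 MHC class I genes 8 were lower (0.04), again with none under 0.05. Of 36 nuclear-encoded subunits of respiratory complex I, the entry point of electrons into the mitochondrial chain, 31 were lower in sign and 5 higher, with a median of -0.15 and no member under 0.05. Ndufa13 was at 447, 391 and 343 CPM in resident libraries against 438, 458 and 335 CPM in infiltrating libraries (-0.06 ± 0.25), and Ndufb8 differed by -0.34 ± 0.37, each with overlap. Of the 6 subunits of the phagocyte NADPH oxidase 4 were lower (median -0.16), with Cybb, its catalytic subunit, at 521, 654 and 567 CPM against 454, 884 and 905 CPM (-0.37 ± 0.32, adjusted p = 0.999). Glycolysis (median -0.07, 11 of 17 lower), antioxidant genes (-0.23, 16 of 20 lower) and Fc gamma receptors (0.01, 3 of 6 lower) had 0, 1 and 0 members under 0.05. Of 11 lysosomal cathepsins 10 were higher in sign, with a median of 0.39 and 2 members under 0.05.

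Restricting the comparison to the cluster with most cells of both gates left 40, 21 and 24 macrophages of cluster 6 in resident libraries against 349, 233 and 196 in infiltrating libraries. This restriction was chosen with the cluster make-up in view. Of 6789 genes 0 were called (0.0%) and 91 had an unadjusted p under 0.05 (1.34%), 45 of them higher (0.663%) and 46 lower (0.678%). DESeq2 also called 0, and edgeR without a filter on low counts called 14. CPM did not overlap for 199 higher genes (2.93%) and 219 lower genes (3.23%). Of the 211 higher genes of the comparison over all macrophages 145 were tested in cluster 6, with a median log2 fold change of 1.00 over all macrophages and 0.49 in cluster 6, and 132 had the smaller absolute value in cluster 6. Of the 91 lower genes 88 were tested, with medians of -0.88 and -0.63, and 73 had the smaller absolute value in cluster 6. These genes were picked by their p over all macrophages, which favours smaller values in any subset of the same cells. The part of cluster make-up in these smaller values was not tested.

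In cluster 6 the microglial surface list kept a median of 0.24 over 12 tested members with 0 at an unadjusted p under 0.05, and the monocyte list one of -0.29 over 11. Ch25h, Chst1 and Colec12 were too low there to be tested. Ch25h had 4, 0 and 1 UMIs in cluster 6 macrophages of the resident libraries and 5, 1 and 23 in those of the infiltrating libraries. C4b differed by 2.14 ± 0.58, at 21.1, 22.5 and 96.6 CPM against 11.6, 10.6 and 6.60 CPM (unadjusted p = 0.00475, adjusted p = 1 with edgeR). It had 12, 6 and 24 UMIs in the resident libraries, and without resident library c the difference was 1.13 ± 0.44 (unadjusted p = 0.0293 with edgeR).

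Fos was also lower in cluster 6, at 21.1, 26.2 and 8.05 CPM in resident libraries against 53.7, 62.2 and 54.8 CPM in infiltrating libraries, which did not overlap. The log2 fold change was -1.57 ± 0.36 (unadjusted p = 0.00157, adjusted p = 1 with edgeR), and it rested on 12, 7 and 2 UMIs against 204, 159 and 83 UMIs. Junb differed by -0.91 ± 0.27, Nfkbia by -0.79 ± 0.26 and Tnf by -1.05 ± 0.32, all with an adjusted p of 1. Of 15 tested genes induced by dissociation 14 were lower and 4 had an unadjusted p under 0.05 (median -0.21). Summed over that list, the level in cluster 6 was 2946, 2562 and 3026 CPM against 3788, 3000 and 3769 CPM, with overlap. Atp6v0d2, a proton pump subunit, was among the higher genes of cluster 6, at 1.36 ± 0.35 (adjusted p = 1).

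Microglia of the same 6 libraries were compared in the same way, to see which gate differences macrophages shared with the other main class. Of 10294 genes 0 were called (0.0%), with 43 at an unadjusted p under 0.05 (0.418%), 22 higher (0.214%) and 21 lower (0.204%). Infiltrating libraries held 11, 1915 and 74 microglia. The difference between the classes was then tested as a term of its own, macrophage minus microglia gate difference, with the library as a block. Of 9469 genes 69 were higher (0.729%) and 3 lower (0.0317%). Of the 69, 55 were also tested in macrophages alone, and 49 of these had a macrophage log2 fold change above 1. The median log2 fold change was 2.20 over the 55 tested in macrophages, 0.04 over the 66 tested in microglia and 0.84 over the 31 tested in cluster 6. The 69 were picked by the class term on these same cells, so the medians are a description.

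Serpine2 had the smallest p. It was at 142, 186 and 96.3 CPM in macrophages of resident libraries against 2.05, 33.9 and 5.96 CPM in those of infiltrating libraries, and differed by 3.32 ± 0.82 in macrophages, 0.47 in microglia and 2.62 ± 0.33 between the classes (adjusted p = 6.73e-07). Infiltrating library b, which had the most cells in clusters 3 and 4 of its gate, was the highest of its gate. Cst7 differed between the classes by 2.53 ± 0.34 (adjusted p = 1.89e-06), and Lag3 by 2.63 ± 0.39 (adjusted p = 2.34e-05). Lag3 was at 66.8, 135 and 135 CPM in macrophages of resident libraries against 0.514, 32.8 and 3.97 CPM in those of infiltrating libraries.

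Ch25h differed between the classes by 2.58 ± 0.40 (adjusted p = 4.18e-05), Sparc, a matrix glycoprotein of microglia, by 2.81 ± 0.44 (adjusted p = 4.67e-05), Timp2 by 1.54 ± 0.25 (adjusted p = 1.14e-04) and Cd81, a tetraspanin, by 2.57 ± 0.42 (adjusted p = 1.14e-04). P2ry12 (1.78 ± 0.30, adjusted p = 1.78e-04) and Cst3 (1.08 ± 0.21, adjusted p = 0.00145) were called as well. In the microglial surface list 7 of 16 members were called higher and 0 lower, in the matrix and plasminogen list 5 of 13, in the disease-associated list 3 of 23 and in the complement list 2 of 13, C4b among them, against 0.729% of all genes. Not every call matched the separate fits. Adam8, of the matrix list, had 2.38 between the classes, with 0.41 in macrophages and -0.10 in microglia. Ccl7 had 2.10, with 0.12 and 0.17, and Ly6c2 had 2.37, with -0.79 in macrophages and no test in microglia. Mmp12, described below, is also of the matrix list. Sall1 (3.47 ± 0.79, adjusted p = 0.0102) and Sall3 (3.52 ± 0.65, adjusted p = 5.73e-04), microglial transcription factors, were called from very low macrophage counts.

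The 3 genes called lower were Fos (-1.99 ± 0.49, adjusted p = 0.0257), Tgfbi, a matrix protein of macrophages (-1.29 ± 0.29, adjusted p = 0.00907), and Cmpk2, an interferon-induced kinase (-3.00 ± 0.75, adjusted p = 0.0287). The gate difference of Fos was -0.32 in microglia. For Arg1, called higher in the class difference by 2.96, the microglial difference was the larger one. It had a log2 fold change of -0.88 in macrophages and -3.01 in microglia, at 3.70, 0.154 and 0.0557 CPM in microglia of resident libraries against 391, 1.11 and 4.25 CPM in those of infiltrating libraries. The 391 CPM stand for 9 UMIs in the 11 cells of infiltrating library a. Without infiltrating library a 21 genes were called, 20 higher and 1 lower, of which 19 were among the 72, and the adjusted p with edgeR was 0.0775 for C4b, 0.120 for Sparc and 0.0572 for Xlr. Without resident library a 147 were called. Without infiltrating library b, the difference was -6.28 for Ccl8 and -0.20 for Mmp12, both called higher with all libraries, with an adjusted p of 0.995 for each.

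**Figure D4:**
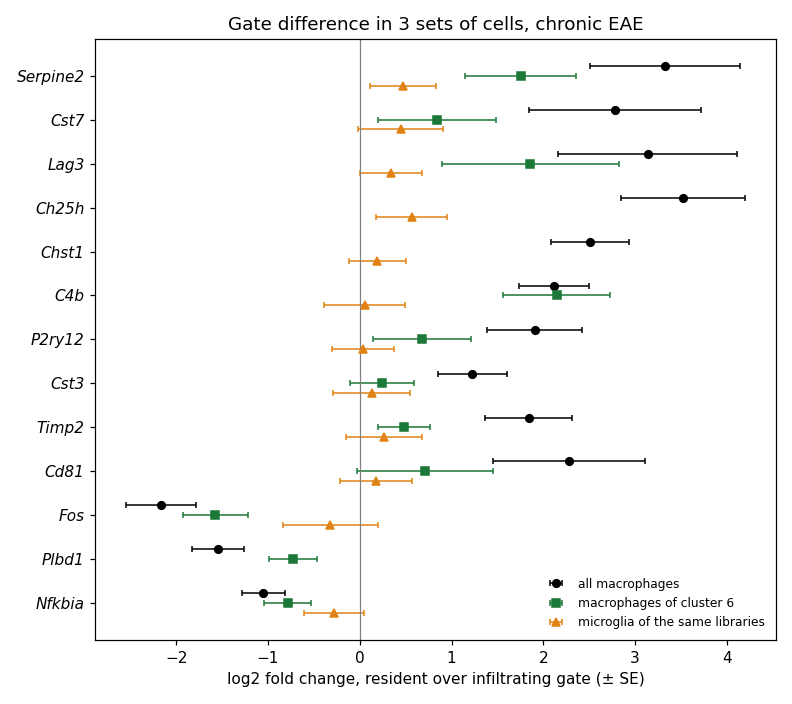
Log2 fold change of the resident over the infiltrating gate (horizontal axis, ± SE) for 13 genes in all macrophages, in macrophages of cluster 6 and in microglia of the same libraries. Serpine2, Cst7 and Lag3 lie at 2.78 to 3.32 in all macrophages and at 0.34 to 0.47 in microglia, and symbols are missing where a gene was too low to be tested.

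The share of cells with a UMI of a gene was counted after each cell was thinned to 2000 UMIs, leaving out 3, 2 and 2 resident and 5, 2 and 4 infiltrating macrophages below that depth. Serpine2 was seen in 16.9%, 33.9% and 10.0% of resident macrophages against 0.870%, 5.70% and 1.03% of infiltrating ones. In resident libraries it was seen in 41.7%, 52.8% and 18.5% of the macrophages of clusters 3 and 4 and in none of the 39, 20 and 22 thinned macrophages of cluster 6, which allows shares of cells with a UMI at that depth of up to 7.69%, 15.0% and 13.6% by counting error alone and sets no limit on cells that express the gene. T cells of the same libraries, taken as the background of free RNA, gave 6.52%, 1.59% and 0% (of 32 cells, which allows up to 9.38%) in resident libraries, against 0% (of 20, up to 15.0%), 8.33% and 0% (of 52, up to 5.77%) in infiltrating libraries, with median depths of 2926 to 3565 UMIs per T cell in resident and 2861 to 3745 in infiltrating libraries. Without thinning, Serpine2 was seen in 32.4%, 50.0% and 38.5% of resident macrophages against 2.29%, 12.5% and 4.02% of infiltrating ones, and in 12.5%, 9.52% and 12.5% of the resident macrophages of cluster 6.

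Ch25h was seen in 13.8%, 12.5% and 12% of thinned resident macrophages against 0.580%, 1.52% and 5.13% of infiltrating ones, and in 12.8%, 5.26% and 6.44% of microglia of the resident libraries. In T cells of the resident libraries it was seen in 2.17%, 1.59% and 0%. Fos was seen in 3.08%, 3.57% and 0% (of 50, up to 6.00%) of resident macrophages against 11.01%, 6.84% and 4.62% of infiltrating ones. The observed shares did not overlap, but the limit of 6.00% for resident library c lies above the 4.62% of infiltrating library c. In thinned T cells of the resident libraries Fos was seen in at most 0.794%. Plbd1 was seen in 6.15%, 5.36% and 8% against 32.2%, 25.5% and 17.4%, and in no thinned T cell. Ms4a7 was seen in 56.9%, 67.9% and 88.0% against 54.2%, 73.4% and 90.8%, so this macrophage marker did not separate the gates.

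Libraries of 1 gate differed from each other more than the gates did for several genes of activation and antigen presentation. In cluster 6 macrophages Arg1, arginase 1 of alternatively activated macrophages, was at 1253, 269.7 and 0 CPM in the resident libraries, against 1775, 108 and 9.90 CPM in infiltrating libraries a, b and c. It was seen in 56.4%, 15.0% and 0% (of 22, up to 13.6%) of thinned cells against 55.7%, 11.6% and 1.56%. Ly6c2 was at 341, 258 and 0 CPM against 325, 303 and 24.4 CPM. Apoe, the lipid carrier apolipoprotein E, was at 17776, 22833 and 59964 CPM against 10152, 23845 and 76461 CPM, and Cx3cr1, the fractalkine receptor, at 21.1, 56.2 and 289.7 CPM against 11.3, 90.3 and 457 CPM.

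In both gates, libraries c had the least Arg1 and Ly6c2 and the most Apoe and Cx3cr1. Cd74, the MHC class II invariant chain, was highest in libraries b, at 20106, 39404 and 21104 CPM in resident libraries against 19982, 55201 and 16354 CPM in infiltrating libraries. The letters only name libraries, and libraries c of both gates share pool B, so pool and any other property of these libraries cannot be told apart. The log2 fold changes between gates were -0.27 ± 1.597 for Arg1, -0.08 ± 1.08 for Ly6c2, -0.14 ± 0.73 for Apoe and -0.67 ± 1.19 for Cx3cr1 in cluster 6, so standard errors exceeded the differences. Across the 7177 genes, Pearson correlations of log CPM over all macrophages were 0.942 between resident a and infiltrating a, 0.941 between resident b and infiltrating b and 0.923 between resident c and infiltrating c. They were 0.802 to 0.954 between the other pairs of opposite gates, 0.860 to 0.929 among resident libraries and 0.879 to 0.945 among infiltrating libraries, so these ranges overlapped. These are correlations across genes, which are not independent replicates.

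**Figure D5:**
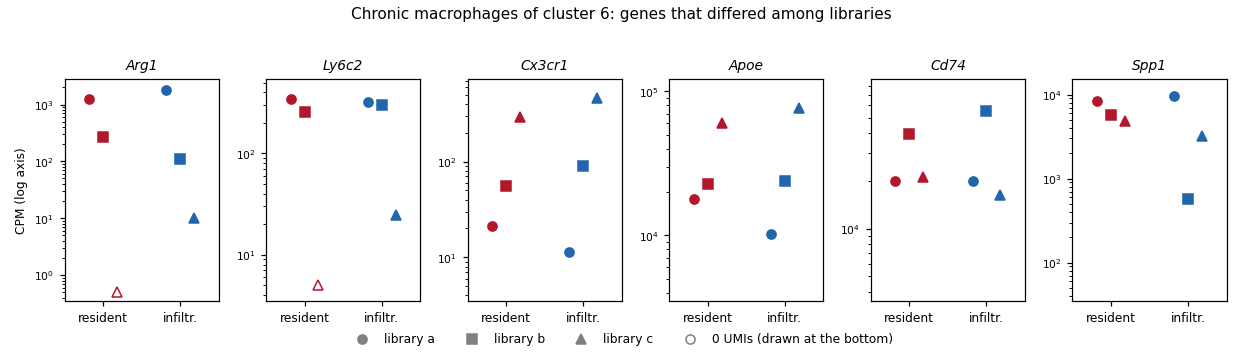
CPM on a log axis of 6 genes in cluster 6 macrophages, resident libraries on the left of each panel and infiltrating libraries on the right, each point 1 library and each open symbol a library with 0 UMIs. Arg1 is at 0 to 1253 CPM in resident libraries and 9.90 to 1775 CPM in infiltrating libraries, and the libraries of the gates overlap for all 6 genes.

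The same gates at the peak of disease were set beside the chronic ones. Peak resident libraries held 30 and 20 macrophages and peak infiltrating libraries 686 and 180. Clusters 3 and 4 held 90.0% and 75.0% of the peak resident macrophages against 0.146% and 0% of the infiltrating ones. Cluster 3 alone held 86.7% and 65.0% of the peak resident macrophages, and cluster 4 held 3.33% and 10.0%. In chronic resident libraries cluster 3 held 14.7%, 15.5% and 1.92% of macrophages, and cluster 4 held 23.5%, 48.3% and 50.0%. Of 8172 genes 469 were higher (5.74%) and 411 lower (5.03%) in the peak resident gate, or 547 and 232 when scaled by library size alone, which placed the median of all genes at 0.30 and not at -0.03. The count was 229 and 458 without peak resident library a and b, and 332 without peak infiltrating library a. Of 15 microglial surface markers 11 rose and 0 fell (median 2.73), and of 14 monocyte markers 9 fell and 0 rose (median -2.55). Other lists differed from the chronic comparison. Of 21 disease-associated genes 10 were higher and 11 lower in sign, with 4 called higher and 5 lower (median -0.008). Of 17 genes induced by dissociation 7 were higher and 10 lower in sign, with 3 called higher and 1 lower (median -0.20). Ch25h was higher by 5.02 (adjusted p = 1.88e-12) and Chst1 by 2.55 (adjusted p = 2.99e-05), in the direction seen in chronic macrophages. Peak values of the other genes chosen by rule are not given here.

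A gate difference that changed with stage was tested as chronic minus peak. Of 8703 genes 5 were higher and 0 lower (0.0575%), with 888 at an unadjusted p under 0.05 (10.2%), and DESeq2 was not run for this contrast. Gpnmb differed by 7.69 (adjusted p = 0.00104), with a log2 fold change of 0.73 ± 0.33 in chronic and -6.94 in peak macrophages. Fabp5, a fatty acid carrier, differed by 7.21 (adjusted p = 0.0292), Acp5, an acid phosphatase, by 7.02 (adjusted p = 0.0338), Crip1 by 3.65 (adjusted p = 0.0292) and Fam20c, a kinase of secreted proteins, by 3.63 (adjusted p = 0.0292). Each of these was lower in the peak resident gate, and in chronic macrophages none of them passed the threshold. Gpnmb was called in every setting run for that contrast, with adjusted p up to 0.0368, and Fabp5, Acp5, Crip1 and Fam20c were not. Without chronic infiltrating library a 45 genes were called. Chronic and peak libraries were sequenced in different pools, so stage and pool cannot be told apart.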

How the data were processed

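The authors deposited a matrix of UMI counts per gene and cell with a table of cells, which carries cell type, cluster, gate, condition, library, the percent of mitochondrial counts and log10 values of the UMI total per cell as the authors computed them. Reads were processed with Cell Ranger 3.1.0 against GRCm38 (mm10) and analysed in R 4.1.3, per the submitters' processing notes. The authors' steps of cell filtering, doublet marking and clustering are known here only through these columns. The table identifies libraries without replicate numbers, so libraries a, b and c only name them.

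From these counts, the UMIs of annotated macrophages were summed per library. Genes were kept with filterByExpr (minimum count 10), scaled by TMM and tested with edgeR 4.0.16 (limma 3.58.1) in R 4.3.3 by the quasi-likelihood test with Benjamini-Hochberg adjustment over all genes tested, at 0.05. DESeq2 1.42.0 was an alternative, as were other scalings and filters, left-out libraries, a pool term and subsets of cells. The class difference used both cell classes with the library as a block. Shares were compared with two-sided exact permutation tests. Simulated data were used to test the edgeR gate fits over all chronic macrophages and over the cluster with most cells of both gates. They were also used for the DESeq2 fit over all chronic macrophages. The fits for microglia, the class difference, peak macrophages and chronic minus peak were not tested in that way. p-values measure the spread between these libraries, intervals and limits of 0 (3 counts) cover counting error only, and no doublet caller was run.

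The genes named were the 6 higher and 6 lower with the smallest p among those with absolute log2 fold change of at least 1, average log2 CPM of at least 5 and no overlap, with up to 4 members per list and a fixed set of 27 genes. Members and lists were chosen with earlier results of these data known. Of 473 list genes 464 were among the features. Results that need items withheld from this text are not reported here.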

Additional observations from a re-analysis of the deposited data

Results flagged for a closer look

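Gate differences that differed between macrophages and microglia of the same chronic libraries were found by a test of the difference itself (edgeR, adjusted p under 0.05), on the log2 scale as macrophage minus microglia. They were 2.08 for Chst1, 2.03 for C4b, 2.58 for Ch25h, 1.78 for P2ry12, 1.54 for Timp2, 2.62 for Serpine2, 2.53 for Cst7, 2.63 for Lag3 and 2.81 for Sparc. They were 2.57 for Cd81, 3.15 for Xlr, 2.61 for Cd34, 3.104 for Ecscr, 2.09 for Ccl8, 2.15 for Mmp12 and 3.52 for Sall3. Of these genes, Xlr, Cd34, Ecscr and Sall3 are named for their small p in that test.

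Gate differences that differed between chronic and peak macrophages were found by the test of chronic minus peak. They were 7.69 for Gpnmb, 7.21 for Fabp5, 7.02 for Acp5, 3.65 for Crip1 and 3.63 for Fam20c. Stage and sequencing pool cannot be told apart in them, and the part of cluster make-up, which differed between the stages, was not tested. Groups of 3 libraries were too small for a check of single libraries that stand apart.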

How the results depend on the processing

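No paired analysis was possible because the deposited cell table carries no replicate numbers for its libraries, and its pools and dates tie libraries of opposite gates one to one only for libraries c. With edgeR, 0 genes were called between the gates in chronic macrophages under other scalings, a minimum count of 20, pool as a term and every subset of cells, against 21 without a filter and 19 with DESeq2, and leaving out 1 library gave 0 to 1. In cluster 6, a comparison added after seeing the data, 14 were called without a filter. With pool as a term, 630 of 7177 genes had an unadjusted p under 0.05 with edgeR over all macrophages, against 302 without that term. In cluster 6 they were 207 and 91 of 6789 genes. Over macrophages without a UMI of Tmem119, P2ry12, Sall1 or Siglech they were 94 of 5527 genes, with no pool term. Leaving out 1 library gave 0 to 12 calls in microglia, 21 to 147 in the class difference, 229 to 858 in peak macrophages and 1 to 45 in the chronic minus peak difference, which had 283 calls without a filter. The 12 genes named by rule kept their direction wherever they could be tested.

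Some log2 fold changes turned round. Without cells holding a UMI of Tmem119, P2ry12, Sall1 or Siglech, values were -0.35 for Cx3cr1, 0.90 for Mrc1, 0.036 for Lyz2, 0.028 for Cd44 and -0.51 for Foxn3. In cluster 6 alone they were -0.67 for Cx3cr1, -0.14 for Apoe, 0.70 for Mrc1, 0.11 for Cybb, 0.17 for Lyz2, -0.10 for Itga6, 0.10 for Vim and -1.04 for Foxn3. Without a filter F13a1 was -0.078 and Fn1 -0.061, with pool as a term Fn1 was -0.090, and after thinning to the smallest library Cd44 was 0.028.

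Leaving out 1 library at a time gave -0.64 to 2.10 for Cx3cr1, -0.44 to 1.25 for Apoe, -3.36 to 2.57 for Arg1, -0.55 to 0.36 for Mrc1, -0.33 to 0.33 for F13a1, -0.50 to 0.16 for Ms4a7, -0.87 to 0.049 for H2-Aa, -0.93 to 0.31 for Cd74, -0.80 to 0.34 for Lyz2, -0.71 to 0.63 for Fn1 and -0.85 to 0.13 for Cd44. In the class difference it gave -6.28 to 2.21 for Ccl8 and -0.20 to 2.48 for Mmp12. The cause was not tested.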
